A study of Mus musculus with 6 samples.

Results

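The genes of glycolysis and of the hypoxia response were examined in RNA sequencing data from cultured mouse cochleae, with and without damage by neomycin. Of the 24421 gene symbols in the count table, 36 were taken by name from a list of glucose and lactate transporters, glycolytic enzymes, regulators of glycolytic flux, subunits and hydroxylases of the hypoxia-inducible factor (HIF), and genes that HIF is known to activate. All 36 were present, and all are annotated as protein-coding. All 36 passed the filter on low counts. Their counts ranged from 602 for Pfkfb4 to 166095 for Pkm in a single sample.

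The samples were explants of cochleae from wild-type mice at postnatal day 2, in a control group (n = 3) and a neomycin group (n = 3). Per the study's culture methods, the tectorial membrane, the modiolus and the anlage of the stria vascularis had been taken off. Neomycin is an aminoglycoside antibiotic that kills sensory hair cells. The culture description gives 12 h in culture, 1 mM neomycin for 6 h and then 5 days with 10 μM EdU, a thymidine analogue that marks dividing cells. The same text is attached to the controls, so the groups rest on the treatment label, and how the controls were handled in place of neomycin is not given in the sources used here. Each sample was a pool of 6 to 8 cochleae. Nothing states whether the pools came from separate litters or cultures, so the p-values below measure the spread between these pools, which may be partly technical. In bulk tissue, fewer cells of a type and less RNA per cell cannot be told apart.

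Glycolysis turns glucose into pyruvate, with lactate as the product when pyruvate is not passed to the mitochondria. HIF is a transcription factor whose alpha subunit (HIF-1α, encoded by Hif1a, or HIF-2α, encoded by Epas1) is marked for destruction by prolyl hydroxylases when oxygen is present. When oxygen is scarce the alpha subunit pairs with ARNT, binds hypoxia response elements in DNA and raises the transcription of glycolytic enzymes, glucose transporters and other genes. Many of these enzymes exist as related isoforms that differ in tissue and kinetics. Explants have no blood flow and receive oxygen by diffusion from the medium.

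Between 50471116 and 66068108 reads were counted per sample. The hair cell markers checked the labels: 15 of 16 fell, and their summed level went from 607 to 757 CPM (counts scaled to a common library size) in controls to 109 to 143 CPM after neomycin. Of the other marker lists, 7 of 10 endothelial markers fell (summed level 312 to 354 CPM in controls and 298 to 351 CPM after neomycin) and 6 of 10 macrophage markers rose (97.6 to 129 CPM and 141.8 to 176.5 CPM, in the same order). The endothelial sum was carried by Emcn, at 252 CPM in controls and 273 CPM after neomycin, while the median log2 fold change of that list was -1.94 and Pecam1 fell from 9.78 to 1.49 CPM and Cldn5 from 4.21 to 0.401 CPM. Among neuron markers 4 of 10 fell and 1 rose (199 to 288 CPM and 186 to 204 CPM), with a median log2 fold change of -0.74. Of the remaining lists, 3 of 7 pericyte markers and 2 of 8 Schwann cell and glia markers fell, 2 of 12 supporting cell markers rose and 4 fell, and 2 of 8 mesenchyme markers rose and 2 fell. No marker of these lists was at 0 in every sample. Of the 6 red blood cell markers, 5 were at 0 in all samples, and Alas2 was at 0.26 CPM in controls and 0.10 CPM after neomycin. Whether the 0 counts reflect absent cells or the handling of reads was not tested. The part of these shifts in cell type markers in the results below was not tested.

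One feature of the libraries touches every result. The first replicate of each group held the lowest level of most of these genes: 25 of the 36 (69.4%) were lowest in replicate 1 of both groups, against 19.7% of all genes tested. In controls alone 28 were lowest in control 1, and after neomycin 29 were lowest in neomycin 1. Their replicates also varied more than those of other genes, with a median coefficient of variation of 12.8% in controls and 13.7% after neomycin, against 9.19% and 8.12% over all genes tested. Summed over the 36 genes, the level was 13730, 15300 and 17710 CPM in controls 1 to 3 and 12950, 16220 and 15170 CPM in neomycin 1 to 3. These sums overlapped, so the total output of the group did not separate treated from control cochleae. The largest terms were Pkm, Aldoa, Ldha, Pgk1 and Tpi1, with control means of 2540, 1943, 1788, 1577 and 1051 CPM. None of them passed the test described below, and genes of lower level weigh little in the sum.

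In the comparison of neomycin with control, 10 of the 36 genes fell (27.8%) and 1 rose (2.78%) at an adjusted p under 0.05 in edgeR's quasi-likelihood test, with adjustment over all 15988 genes tested. Over all genes, 16.1% fell and 12.9% rose, or 29.0% in both directions. The share that fell was thus above the background and the share that rose below it, while the share called in either direction, 30.6%, was close to the background. The genes that fell were Slc2a3, Hk1, Hk2, Pfkp, Gapdh, Pgam1, Eno1, Eno2, Pfkfb3 and Egln3. The gene that rose was Ldhb. With the further requirement of a fold change over 1.5, which the study used to call differential expression, Slc2a3 and Gapdh remained, both lower (8.84% of all genes passed both criteria, 6.60% in the lower direction). The estimated log2 fold change was below 0 for 29 of the 36 and above 0 for 7. Their median was -0.21, against -0.004 over all genes, and they ranged from -1.04 to 0.39. The median was -0.11 without control 3 and -0.13 without neomycin 1. Leaving out control 2 left 6 genes lower and 0 higher. The number of differentially expressed genes was 4 without neomycin 3. It was 1 without control 3 or without neomycin 1, where Slc2a3 was below the fold threshold, as it also was after a correction for gene length.

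**Figure D1:**
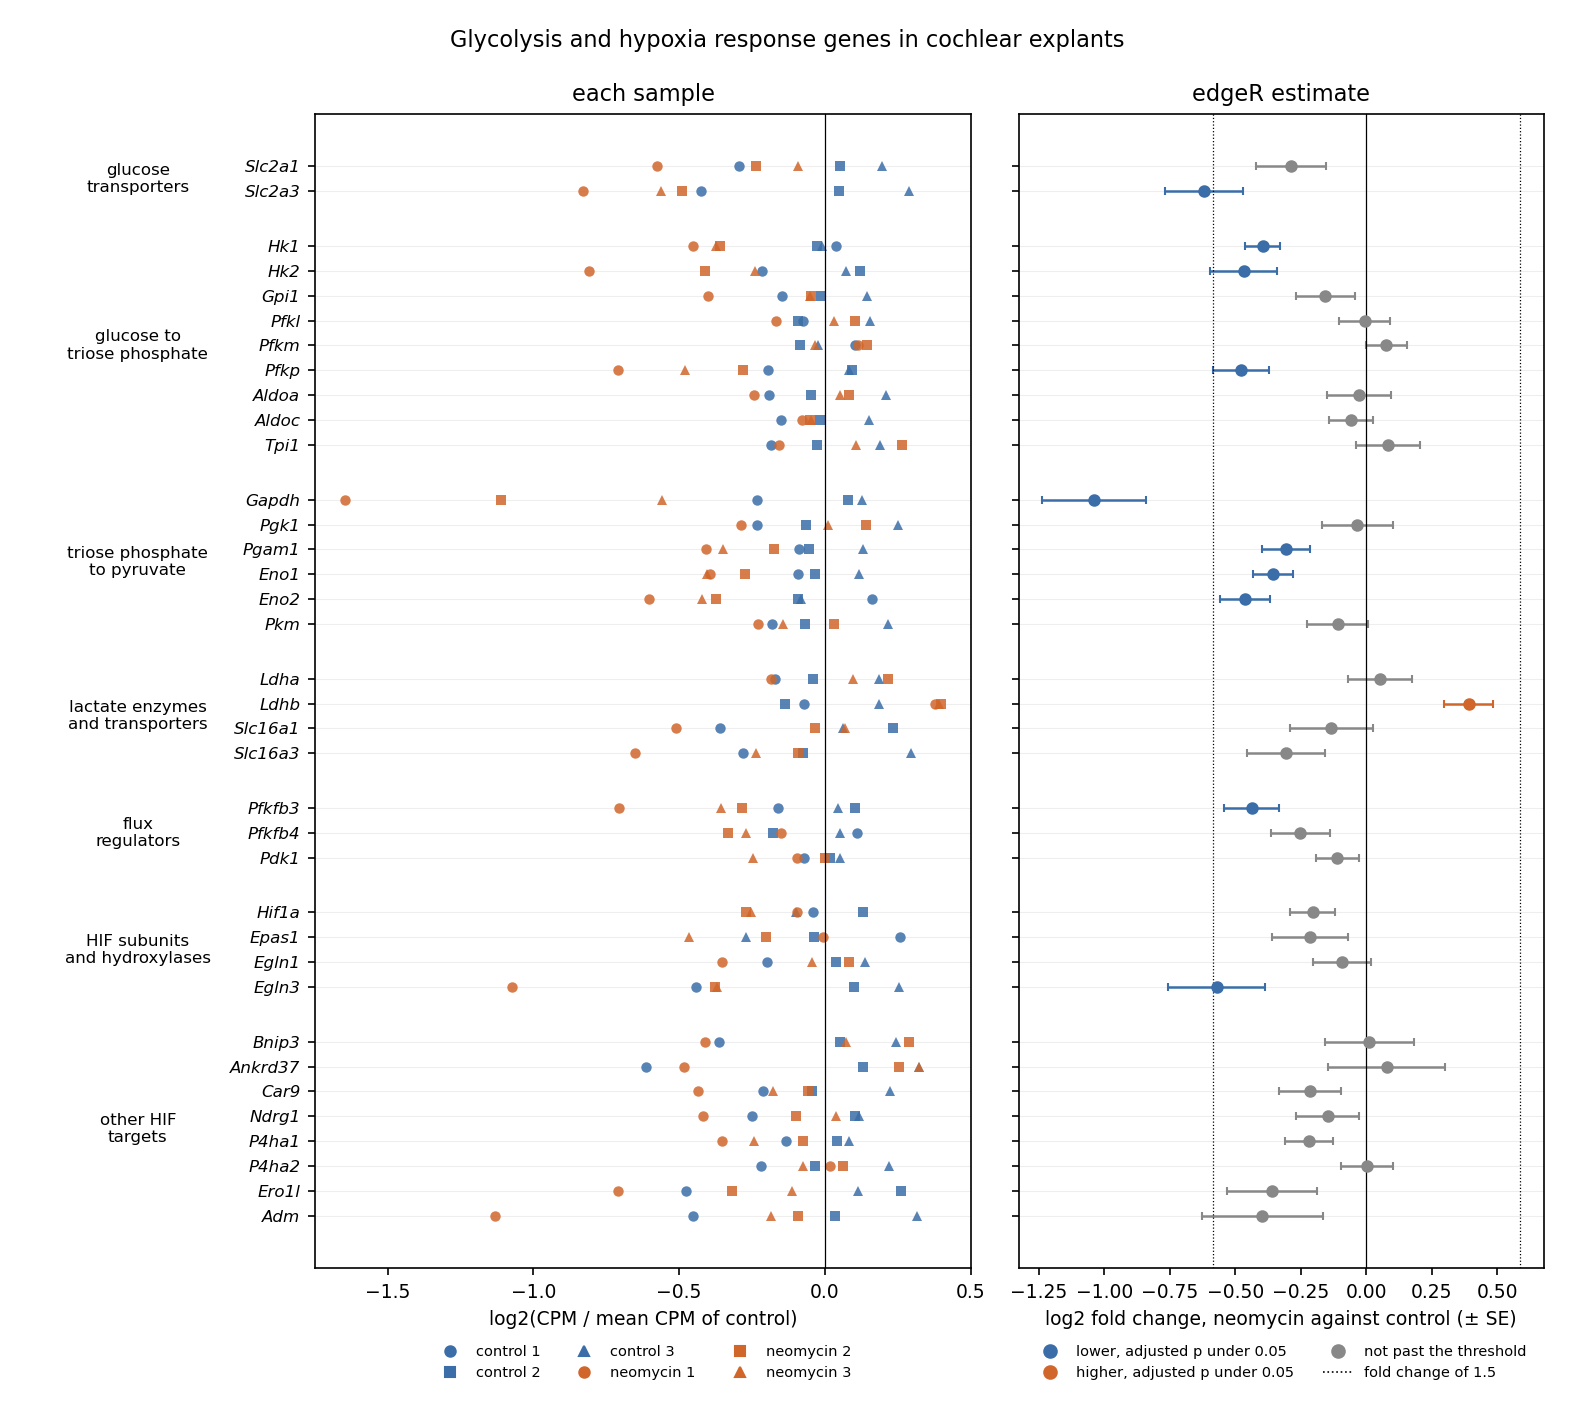
Left, the CPM of each of the 36 genes in each sample as a log2 ratio to the control mean, by role; right, edgeR's log2 fold change ± SE (n = 3 per group), with dotted lines at a fold change of 1.5. Slc2a3 and Gapdh lie left of the dotted line, Ldhb is the only gene coloured as higher, and replicate 1 (circles) is the lowest point of both groups for 25 genes.

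The calls are given here by step of the pathway. From triose phosphate to pyruvate, 4 of 6 enzymes fell and all 6 estimates were below 0. Of these 4, Gapdh, Eno1 and Pgam1 have near-identical annotated copies, described below, which make their counts less certain. From glucose to triose phosphate 3 of 9 fell, of the glucose transporters 1 of 2, of the flux regulators 1 of 3, and of the HIF subunits and hydroxylases 1 of 4. None of the 8 other HIF targets was called in either direction in this fit, although Car9 and Adm passed as lower after correction for gene length. Among the 4 lactate genes 0 fell and 1 rose. Over all genes tested, 16.1% fell and 12.9% rose. Whether these steps differ from each other or from all genes was not tested. For genes whose groups did not overlap, neomycin lay below control for 9 and above for 1 of the 36, while over all genes tested the neomycin samples lay below in 22.5% and above in 21.0%, or 43.5% together.

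HIF binds a short core, ACGTG or GCGTG. Both were searched on both strands in the 250 bases before the first listed start of each gene in RefSeq's promoter table (GRCm38.p6). Of the 36 genes, 33 had an entry, Ero1l through another symbol, while Slc2a3, Epas1 and Ndrg1 had none. ACGTG stood in 18 of the 33 (54.5%), against 16.6% of all 27025 promoters, and GCGTG in 18 of 33 (54.5%), against 28.2%. At least 1 of the cores was found in 27 (81.8%), against 38.6%. The windows of these genes also held more CG dinucleotides, with a median of 14 against 6, and each core contains a CG. Of the 10 called genes with an entry, 8 held a core and 4 held ACGTG. These 4 (Hk2, Pgam1, Pfkfb3 and Egln3) are printed with Pgk1 and Ldha, which were not called, and with Ldhb, which rose, so that windows of genes with and without a call can be compared. Each runs 5′ to 3′ towards the gene start, with matches to a core in capitals. A match reading CACGT or CACGC is the core on the opposite strand, and CACGTG holds ACGTG on both strands. The Ldha window and part of the Pfkfb3 window lie inside the span that GENCODE gives these genes, which includes transcripts with other starts.
Hk2, chr6:82774455-82774704, minus strand: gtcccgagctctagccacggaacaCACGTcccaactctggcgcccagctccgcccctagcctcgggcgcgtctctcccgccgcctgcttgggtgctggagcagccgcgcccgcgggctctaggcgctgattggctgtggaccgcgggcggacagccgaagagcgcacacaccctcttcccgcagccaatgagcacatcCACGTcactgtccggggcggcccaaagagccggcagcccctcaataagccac
Pgam1, chr19:41911621-41911870, plus strand: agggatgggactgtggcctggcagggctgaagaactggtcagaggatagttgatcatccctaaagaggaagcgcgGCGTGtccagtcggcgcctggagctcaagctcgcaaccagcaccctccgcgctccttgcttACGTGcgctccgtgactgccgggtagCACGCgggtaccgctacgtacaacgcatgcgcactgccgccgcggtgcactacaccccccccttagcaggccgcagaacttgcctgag
Pfkfb3, chr2:11553930-11554179, minus strand: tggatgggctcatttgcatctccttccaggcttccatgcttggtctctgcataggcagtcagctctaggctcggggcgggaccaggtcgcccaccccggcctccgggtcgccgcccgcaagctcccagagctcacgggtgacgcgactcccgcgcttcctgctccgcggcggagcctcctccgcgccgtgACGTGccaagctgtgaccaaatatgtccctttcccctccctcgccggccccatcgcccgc
Egln3, chr12:54203875-54204124, minus strand: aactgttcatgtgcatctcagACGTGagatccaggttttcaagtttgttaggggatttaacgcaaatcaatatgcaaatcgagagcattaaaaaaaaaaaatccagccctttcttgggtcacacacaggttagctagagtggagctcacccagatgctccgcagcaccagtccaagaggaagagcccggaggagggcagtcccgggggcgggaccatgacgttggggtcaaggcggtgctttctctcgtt
Pgk1, chrX:106186850-106187099, plus strand: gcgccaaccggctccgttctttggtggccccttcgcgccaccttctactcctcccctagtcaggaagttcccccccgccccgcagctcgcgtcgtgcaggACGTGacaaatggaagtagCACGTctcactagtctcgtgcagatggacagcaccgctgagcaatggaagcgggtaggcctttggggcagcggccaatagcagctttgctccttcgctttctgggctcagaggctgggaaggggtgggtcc
Ldha, chr7:46845554-46845803, plus strand: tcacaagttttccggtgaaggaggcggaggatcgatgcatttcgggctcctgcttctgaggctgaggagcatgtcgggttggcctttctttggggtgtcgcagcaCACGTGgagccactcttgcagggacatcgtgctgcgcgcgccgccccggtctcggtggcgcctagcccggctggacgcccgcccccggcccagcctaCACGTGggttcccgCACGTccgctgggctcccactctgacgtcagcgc
Ldhb, chr6:142507958-142508207, minus strand: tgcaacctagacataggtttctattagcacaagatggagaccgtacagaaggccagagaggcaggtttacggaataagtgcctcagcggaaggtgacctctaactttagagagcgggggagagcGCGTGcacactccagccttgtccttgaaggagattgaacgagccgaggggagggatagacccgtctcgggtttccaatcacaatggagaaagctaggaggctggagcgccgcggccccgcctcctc

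The windows of Hk2 and Pgk1 held 2 matches of ACGTG each, and that of Ldha held 5, of which 4 formed 2 palindromes of CACGTG. The Ldhb window had a single match of GCGTG. Each palindrome was counted as 2 matches. The window of Pgam1, which fell, held 1 match of ACGTG and 2 of GCGTG. Matches were present in genes that fell, that rose and that were not called. The printed genes that fell were picked for holding ACGTG, so their matches follow from that choice. The windows of Hk1 and Eno2, which also fell, held neither core. A match describes letters in the window and not a bound site.

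Glucose enters cells through facilitative transporters. Slc2a3 (chr6:122727809-122801640, minus strand; coordinates of genes are from GENCODE M21 on GRCm38, the mm10 build that the submitters' processing notes name) encodes GLUT3, a high-affinity transporter best known from neurons. Its level was 32.9, 45.7 and 53.9 CPM in controls 1 to 3 and 24.8, 31.4 and 29.9 CPM in neomycin 1 to 3. The groups did not overlap, and the gene fell 1.54-fold (log2 fold change -0.62, SE 0.15, edgeR adjusted p = 0.00901). Its fold change was under 1.5 without control 3 (log2 fold change -0.44), without neomycin 1 (-0.53) and after correction for gene length (-0.51), while its adjusted p stayed under 0.05. Slc2a1 encodes GLUT1, the transporter of most cell types and of vascular endothelium. With 299, 380 and 420 CPM in controls and 246, 311 and 343 CPM after neomycin it overlapped between groups and did not pass the test (log2 fold change -0.29, SE 0.13, edgeR adjusted p = 0.126). In edgeR fits with a replicate block or without control 1, Slc2a1 did pass as lower (edgeR adjusted p = 0.0025 and 0.0281). Per length of merged exons, Slc2a1 was the more abundant, with 104 ± 17.6 RPKM (SD, n = 3) in controls against 6.09 ± 1.46 RPKM for Slc2a3. Within each sample the log2 ratio of Slc2a1 to Slc2a3 counts was 3.18, 3.06 and 2.96 in controls and 3.31, 3.31 and 3.52 after neomycin, higher in all 3 treated samples and by 0.31 on average.

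Hexokinases trap glucose by phosphorylation, the first step of the pathway. Hk1 (chr10:62268855-62379908, minus strand), the isoform of brain and most other tissues, was at 138, 132 and 133 CPM in controls and at 98.2, 105 and 104 CPM after neomycin. Replicates of Hk1 were tight in both groups, and it fell 1.31-fold (log2 fold change -0.39, SE 0.07, edgeR adjusted p = 0.00143). After correction for gene length its log2 fold change was smaller, at -0.24 (edgeR adjusted p = 0.0177). Hk2 (chr6:82725025-82774454, minus strand), the inducible isoform of muscle and fat and a known HIF target, was at 83.4, 105 and 102 CPM in controls and at 55.2, 72.8 and 82.1 CPM after neomycin. Its highest treated sample lay just under its lowest control, and it fell 1.38-fold (log2 fold change -0.47, SE 0.13, edgeR adjusted p = 0.0172). Without control 2 or without neomycin 2 the Hk2 call was lost (edgeR adjusted p = 0.0852 and 0.0522). The ratio of Hk1 to Hk2 did not separate the groups, differing by 0.085 on the log2 scale (exact permutation test, two-sided, p = 0.6). The Hk1 gene overlaps an antisense transcript, and the reads were not described as stranded, so counts from the overlap cannot be assigned to a strand.

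Phosphofructokinase commits fructose 6-phosphate to glycolysis. Of its 3 isoforms 1 fell. Pfkp (chr13:6579768-6648777, minus strand), the platelet isoform, which is also found in brain, was at 89.5, 109 and 109 CPM in controls and at 62.7, 84.4 and 73.5 CPM after neomycin. All treated samples lay below all controls, a fall of 1.39-fold (log2 fold change -0.48, SE 0.11, edgeR adjusted p = 0.00681). Pfkl, the liver isoform, ran from 387 to 459 CPM in controls and from 367 to 443 CPM after neomycin (log2 fold change -0.0068, SE 0.10). Pfkm, the muscle isoform, ran from 87.9 to 100 CPM and from 91.3 to 103 CPM (log2 fold change 0.077, SE 0.08). The log2 ratio of Pfkl to Pfkp was 2.13, 1.82 and 2.08 in controls and 2.55, 2.39 and 2.52 after neomycin, a difference of 0.48. For Pfkm to Pfkp the difference was 0.56. Pfkp has the longest merged exons of the 3 isoforms, 13401 bases, and long genes as a class were lower after neomycin. Over the 3172 genes with the longest exons the median log2 fold change was -0.19, and over the 3172 with the shortest it was 0.24. After correction for this trend Pfkp was at -0.25 and no longer passed (edgeR adjusted p = 0.172). Its exons overlap those of Pitrm1 on the opposite strand, to which the same limit on strand applies.

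The remaining enzymes of the upper pathway did not pass the test. Gpi1, which isomerises glucose 6-phosphate, had a log2 fold change of -0.16 (SE 0.11). The aldolases Aldoa and Aldoc, which split the hexose into triose phosphates, were at -0.029 (SE 0.12) and -0.059 (SE 0.08). Tpi1, which interconverts the triose phosphates, was at 0.082 (SE 0.12). Aldoa was among the most abundant transcripts of the group, at 668 ± 96.0 RPKM in controls and 654 ± 78.9 RPKM after neomycin (SD, n = 3).

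Gapdh (chr6:125161715-125166467, minus strand), the dehydrogenase that oxidises glyceraldehyde 3-phosphate and a common reference gene, showed the greatest estimated change of the 36. It was at 45.6, 56.5 and 58.4 CPM in controls and at 17.1, 24.8 and 36.3 CPM after neomycin. The groups did not overlap, and it fell 2.05-fold (log2 fold change -1.04, SE 0.20, edgeR adjusted p = 0.00275), with the 3 treated samples spread more widely than the controls. The level itself was low for this enzyme. Per length Gapdh was at 12.9 ± 1.68 RPKM in controls, while Pgk1, the next enzyme of the pathway, was at 703 ± 122 RPKM and Tpi1, the enzyme before it, at 382 ± 49.8 RPKM (SD, n = 3). The merged exons of Gapdh hold 4133 bases for a coding sequence of 1077, against 2244 and 1251 for Pgk1. This lowers the RPKM of Gapdh beside that of Pgk1. The raw counts were 3144, 2950 and 3281 in controls and 907, 1463 and 1949 after neomycin. The mouse annotation holds 70 near-identical copies of Gapdh (at least 95% identity over at least 80% of its coding sequence), of which 2 had rows in the count table. The copy Gm12070, with 99.9% identity, was at 12.9 ± 1.14 CPM and 12.1 ± 1.54 CPM (log2 fold change -0.10, edgeR adjusted p = 0.591), and Gm5069 fell (log2 fold change -0.44, edgeR adjusted p = 0.0427). How reads that match several copies were handled is not given in the sources used here, so the Gapdh value is uncertain as a measure of the gene's total transcript.

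Eno1 (chr4:150236721-150248879, plus strand) and Eno2 (chr6:124760053-124769673, minus strand) encode enolases, which make phosphoenolpyruvate. Eno1, the ubiquitous isoform, was at 88.1, 91.8 and 102 CPM in controls and at 71.5, 77.7 and 71.0 CPM after neomycin, a fall of 1.28-fold (log2 fold change -0.36, SE 0.08, edgeR adjusted p = 0.00527). It has 3 near-identical annotated copies. One of them, Eno1b (99.4% identity), had a row of its own and fell as well, from 30.6 ± 2.46 to 25.5 ± 0.367 CPM (edgeR adjusted p = 0.0366), so reads may be split between the rows. Eno1 stood at 17.5 ± 1.32 RPKM in controls, far below Pgam1 (266 ± 22.2 RPKM) and Pkm (508 ± 74.1 RPKM), its neighbours in the pathway (SD, n = 3). Its RPKM divides by 5379 bases of merged exons, against 1982 for Pgam1 and 5001 for Pkm. Eno2, the isoform known as neuron-specific enolase, has no such copy. It was at 40.6, 34.1 and 34.3 CPM in controls and at 23.9, 28.0 and 27.2 CPM after neomycin, and fell 1.38-fold without overlap (log2 fold change -0.46, SE 0.10, edgeR adjusted p = 0.00435). Eno2 stayed below an adjusted p of 0.05 in every alternative, with estimates from -0.51 to -0.37. Over the same samples 4 of 10 neuron markers fell and 8 had estimates below 0, with a median log2 fold change of -0.74. The summed level of all 10 was 288, 211 and 199 CPM in controls and 204, 186 and 187 CPM after neomycin, which overlapped. Its largest terms were Syt1, which rose (55.5 CPM in controls and 71.8 CPM after neomycin), and Stmn2 (46.9 and 48.3 CPM).

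Pgam1 (chr19:41911923-41918660, plus strand), which converts 3-phosphoglycerate to 2-phosphoglycerate, was at 496, 507 and 577 CPM in controls and at 397, 467 and 413 CPM after neomycin. All treated samples lay below all controls, a fall of 1.24-fold (log2 fold change -0.31, SE 0.09, edgeR adjusted p = 0.0256). The Pgam1 call was lost in 4 of 6 fits with 1 library left out (without control 2, control 3, neomycin 1 or neomycin 3), where the edgeR adjusted p lay between 0.0624 and 0.0925. The annotation holds 1 near-identical copy of Pgam1, 2 of Pgk1, 1 of Pkm, 1 of Gpi1 and 4 of Bnip3. Pgk1, the first enzyme of the pathway to make ATP, and Pkm, which makes pyruvate, were per length the most and the fourth most abundant of the group and did not pass (log2 fold change -0.034, SE 0.14, and -0.11, SE 0.12). Pgk1 ran from 1343 to 1879 CPM in controls and from 1292 to 1739 CPM after neomycin, and Pkm from 2241 to 2955 CPM and from 2168 to 2594 CPM.

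**Figure D2:**
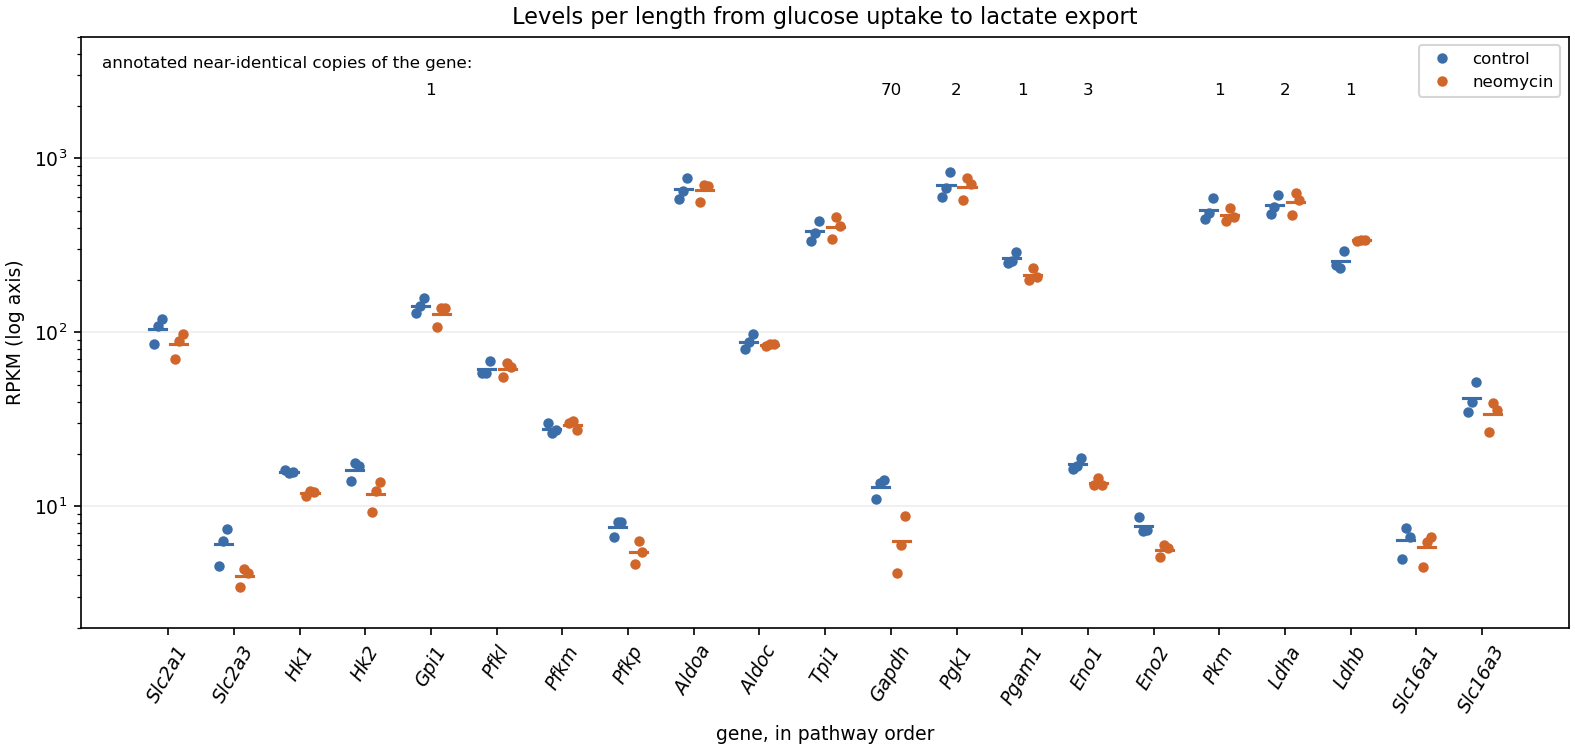
RPKM of transporters and enzymes in pathway order on a log axis, with 1 point per sample, a bar at each group mean and, above, the number of near-identical annotated copies. Gapdh, at 12.9 RPKM in controls, and Eno1, at 17.5 RPKM, lie far below neighbouring enzymes such as Pgk1, at 703 RPKM. Gapdh has 70 copies, Eno1 has 3 and Pgk1 has 2. The merged exons of Gapdh and Eno1, by which RPKM divides, hold 4133 and 5379 bases, against 2244 for Pgk1.

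Lactate dehydrogenase is a tetramer of A and B subunits. The A subunit is a known HIF target and favours lactate formation, while the B subunit favours its oxidation to pyruvate. Ldhb (chr6:142490249-142507957, minus strand) was at 385, 368 and 460 CPM in controls and at 525, 533 and 530 CPM after neomycin. All treated samples lay above all controls and close to each other, and Ldhb rose 1.31-fold (log2 fold change 0.39, SE 0.09, edgeR adjusted p = 0.00836). Ldha ran from 1590 to 2034 CPM in controls and from 1573 to 2079 CPM after neomycin, with a log2 fold change of 0.052 (SE 0.12). Within samples, the log2 ratio of Ldha to Ldhb was 2.05, 2.24 and 2.15 in controls and 1.58, 1.96 and 1.85 after neomycin. It was lower in every treated sample than in every control, by 0.35 on average. Ldhb is short, with 1570 bases of merged exons, in the class of genes whose median log2 fold change was 0.24. Corrected for length it was at 0.15 and did not pass (edgeR adjusted p = 0.149), nor did it pass without control 2 (log2 fold change 0.33, edgeR adjusted p = 0.0543). Ldhb also has 1 near-identical annotated copy, and Ldha has 2. The monocarboxylate transporters Slc16a1 (MCT1) and Slc16a3 (MCT4), which carry lactate across the membrane, did not pass (log2 fold change -0.13, SE 0.16, and -0.31, SE 0.15).

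Flux through phosphofructokinase is set in part by fructose 2,6-bisphosphate, which the PFKFB enzymes make and remove. Pfkfb3 (chr2:11471433-11554077, minus strand), the isoform with the strongest kinase activity and a HIF target, was at 94.0, 113 and 108 CPM in controls and at 64.4, 86.3 and 82.0 CPM after neomycin. The groups did not overlap, and it fell 1.35-fold (log2 fold change -0.44, SE 0.11, edgeR adjusted p = 0.00972). Corrected for length Pfkfb3 was at -0.31 with an adjusted p of 0.0620 in edgeR, and without control 2 at -0.38 with 0.0555. Pfkfb4 was lower in level, at 10.7 to 14.6 CPM over all samples (log2 fold change -0.25, SE 0.11, edgeR adjusted p = 0.113). Pdk1, which restrains the entry of pyruvate into mitochondria by phosphorylating pyruvate dehydrogenase, was at -0.11 (SE 0.08).

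Egln3 (chr12:54178981-54203860, minus strand) encodes the prolyl hydroxylase PHD3, which acts on HIF alpha subunits and is itself induced by HIF. It was at 85.7, 125 and 139 CPM in controls and at 55.3, 89.7 and 90.0 CPM after neomycin. Control 1 lay below 2 treated samples, so the groups overlapped, although Egln3 fell 1.49-fold by the test (log2 fold change -0.57, SE 0.18, edgeR adjusted p = 0.0361). The Egln3 call was the least stable of the 11. DESeq2 gave an adjusted p of 0.123, and with edgeR it was lost without control 2, without control 3, without neomycin 1 or without neomycin 2 (adjusted p from 0.0529 to 0.127). The other hydroxylase, Egln1 (PHD2), the main oxygen sensor of most cells, was at -0.093 (SE 0.11). Compared within samples, the log2 ratio of Egln1 to Egln3 was 0.73 ± 0.19 in controls and 1.21 ± 0.20 after neomycin (SD, n = 3), without overlap. The alpha subunits Hif1a and Epas1 had estimates below 0 and did not pass. Hif1a was at 245, 277 and 236 CPM in controls and at 236, 209 and 212 CPM after neomycin (log2 fold change -0.20, SE 0.08, edgeR adjusted p = 0.0862), and Epas1, at 12.9 to 21.3 CPM over all samples, had a log2 fold change of -0.21 (SE 0.14). HIF activity is controlled mainly through protein stability, which these data do not measure.

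None of the 8 other HIF targets passed in the main fit. This depended on the model: Car9 and Adm passed as lower after correction for gene length. With a replicate block Car9, P4ha1, Ero1l and Adm did. Bnip3, a mitophagy receptor, was at 0.012 (SE 0.17), Ankrd37 at 0.077 (SE 0.22), and P4ha2, a collagen prolyl hydroxylase subunit, at 0.0032 (SE 0.10). Estimates below 0 were found for Car9, a carbonic anhydrase of the cell surface and a standard hypoxia marker (-0.22, SE 0.12), Ndrg1 (-0.15, SE 0.12), P4ha1 (-0.22, SE 0.09), the oxidoreductase gene Ero1l (-0.36, SE 0.17) and Adm, which encodes the vasodilator peptide adrenomedullin (-0.40, SE 0.23). Car9 was abundant in both groups, at 200 ± 30.9 RPKM in controls and 172 ± 22.4 RPKM after neomycin (SD, n = 3). Bnip3 was at 217 ± 44.7 and 218 ± 51.5 RPKM. Adm shows the low first replicate of both groups, since it was at 24.1, 33.9 and 41.1 CPM in controls and at 15.1, 31.0 and 29.1 CPM after neomycin. Ankrd37, at 16.3, 27.4 and 31.3 CPM and at 17.9, 29.8 and 31.3 CPM, varied more between replicates than between groups.

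Ratios between related genes within a sample do not depend on how libraries are scaled. Of 12 such pairs, the groups did not overlap in 6 (the levels of single genes did not overlap for 43.5% of all genes tested). The ratios of Pfkl to Pfkp, Pfkm to Pfkp, Slc2a1 to Slc2a3 and Egln1 to Egln3 were higher after neomycin, by 0.48, 0.56, 0.31 and 0.48 on the log2 scale. Those of Ldha to Ldhb and of P4ha1 to P4ha2 were lower, by 0.35 and 0.23. The ratios were not corrected for gene length, and in the fit with that correction the log2 fold changes of Ldha and Ldhb were -0.0059 and 0.15, and those of Pfkl and Pfkp 0.094 and -0.25. With 3 samples against 3 the exact two-sided permutation test cannot give less than p = 0.1, which these 6 pairs reached, and the value adjusted over the 12 pairs was 0.2, so none passes 0.05 in this design. In the other 6 pairs (Hk1 and Hk2, Aldoa and Aldoc, Eno1 and Eno2, Slc16a1 and Slc16a3, Pfkfb3 and Pfkfb4, Hif1a and Epas1) the groups overlapped, with differences from -0.20 to 0.17.

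**Figure D3:**
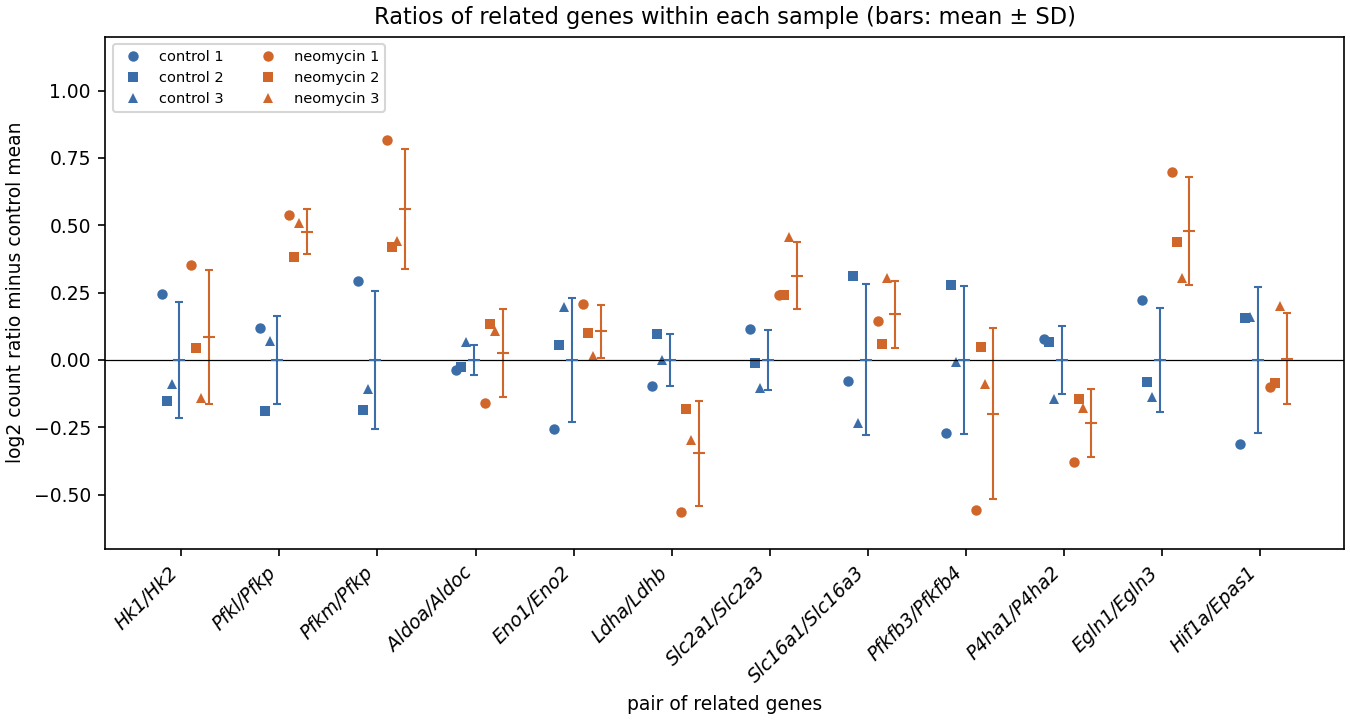
Log2 ratio of the counts of 2 related genes in each sample, less the control mean of the pair, with mean ± SD (n = 3 per group) beside the points. The treated samples lie apart from the controls for 6 of the 12 pairs, above them for Pfkl/Pfkp, Pfkm/Pfkp, Slc2a1/Slc2a3 and Egln1/Egln3 and below them for Ldha/Ldhb and P4ha1/P4ha2.

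Further genes of both pathways were taken from a list of 77, of which 72 were tested. Among them 6 rose (8.33%) and 15 fell (20.8%), beside 12.9% and 16.1% over all genes tested, and the median log2 fold change was -0.047. The hypoxia genes of this list leaned lower, with 11 of 35 fallen and 2 risen, while the glycolysis and pyruvate genes were balanced, with 4 fallen and 4 risen of 37. Without control 2 the number that rose was 2, and without neomycin 2 or without neomycin 3 it was 3.

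Among the hypoxia genes of the list, Car12, a carbonic anhydrase, fell from 123 to 73.0 CPM (log2 fold change -0.75), Stc2, a stanniocalcin, from 22.2 to 14.4 CPM (-0.62), Loxl2, a lysyl oxidase that crosslinks collagen, from 105 to 69.6 CPM (-0.59), and Bhlhe40, a transcriptional repressor, from 153 to 106 CPM (-0.53). Vegfa, the endothelial growth factor, was at 339, 464 and 434 CPM in controls and at 222, 314 and 322 CPM after neomycin, and fell 1.44-fold (log2 fold change -0.53, SE 0.14, edgeR adjusted p = 0.0161). Higd1a and Vhl rose (log2 fold change 0.41 and 0.24). Vhl encodes the ubiquitin ligase subunit that recognises hydroxylated HIF alpha. Arnt, whose product pairs with the alpha subunits, and Hif1an fell (log2 fold change -0.37 and -0.34).

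Both subunits of the mitochondrial pyruvate carrier rose. Mpc2 was at 42.2, 46.0 and 45.6 CPM in controls and at 60.6, 59.5 and 63.5 CPM after neomycin (log2 fold change 0.46, SE 0.07, edgeR adjusted p = 0.000788), and Mpc1 went from 21.7 to 27.2 CPM (log2 fold change 0.32, edgeR adjusted p = 0.0293). Mpc1 is short, with 2082 bases of merged exons, in the class of genes whose median log2 fold change was 0.24. Mpc2, with 7344 bases, is in a class of longer genes with a median of -0.093. Pgls, of the pentose phosphate pathway, rose as well (log2 fold change 0.37). Hk3, a hexokinase known from myeloid cells, was at 3.65, 3.72 and 3.45 CPM in controls and at 4.69, 6.91 and 6.76 CPM after neomycin and rose 1.70-fold (edgeR adjusted p = 0.00780), in the same samples in which 6 of 10 macrophage markers rose and their summed level went from 97.6, 111.5 and 129 CPM to 141.8, 176 and 176.5 CPM. The 4 that fell were Pfkfb2, H6pd, Pdhx and Pcx, with log2 fold changes from -0.44 to -0.27. Vegfa, Vhl, Arnt, Hif1an and these 4 genes were named after their values had been seen.

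**Figure D4:**
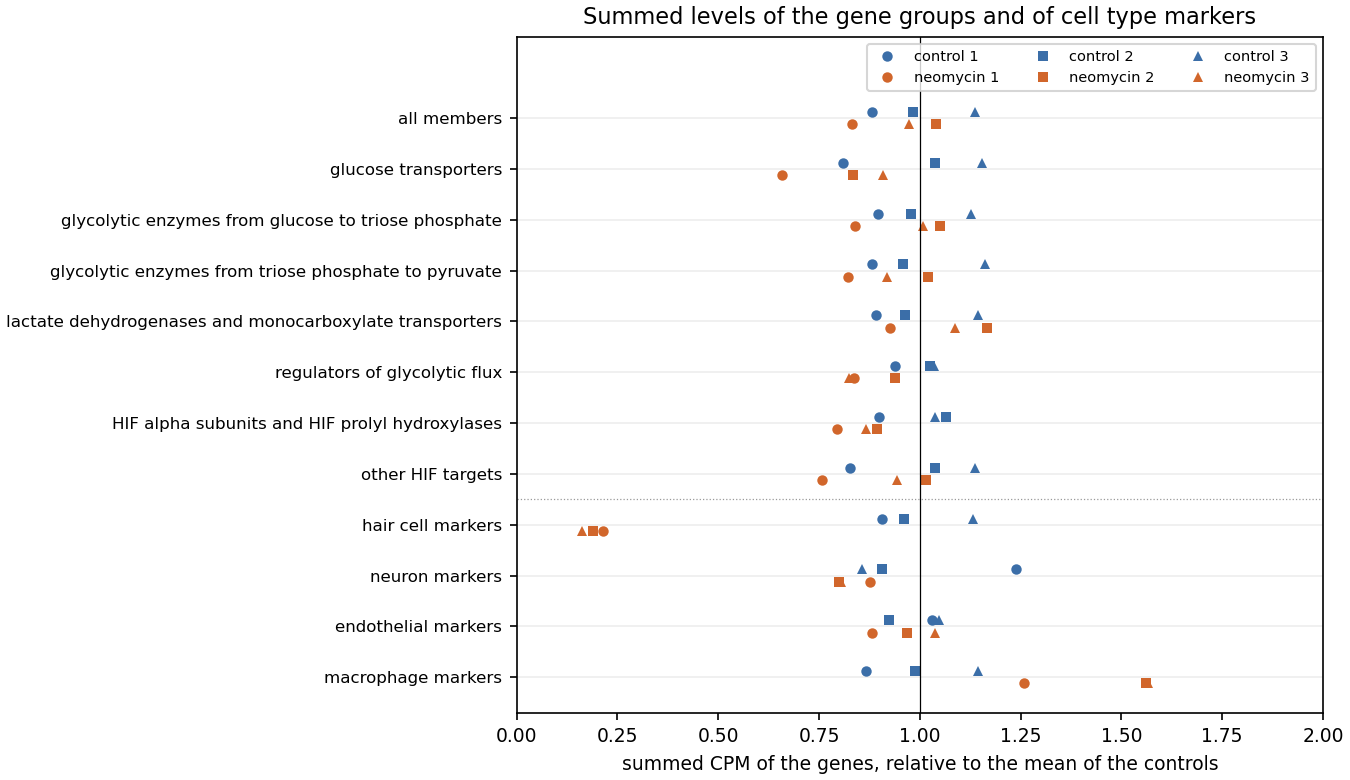
Summed CPM of each gene group and of 4 marker lists in each sample, relative to the mean of the controls. The sums of all 36 genes overlap between groups. Those of the flux regulators and of the HIF subunits and hydroxylases lie lower after neomycin, by a narrow margin. The lowest control and highest neomycin sums are 325.9 and 325.6 CPM for the flux regulators, and 518.5 and 516.4 CPM for the HIF genes. Hair cell markers are at 109 to 143 CPM after neomycin, and macrophage markers lie above all controls.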

How the data were processed

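RNA was taken from pools of cultured cochleae. Per the labels and the study's methods, the authors trimmed reads (Trimmomatic 0.23, after CASAVA 1.8), aligned them to mm10 with HISAT2 and counted them per gene with HTSeq, and the deposited values are raw counts. From these counts, edgeR 4.0.16 (R 4.3.3) was run with TMM scaling, its filter on low counts and the quasi-likelihood test, and p-values were adjusted by Benjamini-Hochberg over 15988 genes. The SE was computed from the log2 fold change and its F statistic. CPM uses the TMM-scaled library, and RPKM divides it by merged exon length in GENCODE M21, which gave all 36 genes a length. Ratios of related genes used counts plus 0.5 and an exact two-sided permutation test (scipy 1.17.1). Near-identical copies were found with blastn 2.17.0.

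All 36 genes were described. Those past an adjusted p of 0.05, or whose groups did not overlap, were given in every sample. Of the further genes, those also past a fold change of 1.5, or up to 5 with the greatest change per direction, were named. A gene that this rule would name is not reported here. The genes and lists were chosen with earlier results of these data known. On simulated data the test recovered 50 of 99 genes changed by 0.5 and 78 of 98 changed by 1 on the log2 scale, with 12 false calls among 15831 genes. Alternatives were RLE and upper quartile scaling, DESeq2 1.42.0, limma-voom (limma 3.58.1), other filters and thresholds, a replicate block, a gene length correction and leaving out each sample.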

Additional observations from a re-analysis of the deposited data

How the results depend on the processing

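RLE and upper quartile scaling, DESeq2, limma-voom, no filter on low counts and a filter of at least 1 CPM in 3 samples left 9 or 10 of the 36 genes lower, 1 higher and 2 differentially expressed. With an adjusted p under 0.01 the numbers were 7 and 1. With a less strict fold threshold 10 were differentially expressed, and with a fold change over 2, 1 was. Leaving out each replicate gave 6 to 13 lower, 0 to 1 higher and 1 to 4 differentially expressed, 2 to 8 further genes higher, 11 to 15 further genes lower, and a median from -0.24 to -0.11. Without genes that have near-identical copies (an alternative chosen after seeing the data) 7 were lower, 0 higher and 1 differentially expressed. Correction for gene length left 10 lower, 0 higher and 3 differentially expressed (Gapdh, Egln3 and Adm). Pfkp, Pfkfb3 and Ldhb were lost, while Car9 (-0.36) and Adm (-0.63) passed.

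Whether replicate numbers pair the samples could not be settled. The correlations of same-numbered deviations were 0.304, 0.039 and 0.167. Controls 1 and 3 were closest to the neomycin sample of their own number, while control 2 was closer to neomycin 3 (0.073). A replicate block gave 17 lower and 1 higher, beside 20.2% and 17.4% of all genes tested. The 7 genes it added were Slc2a1, Slc16a3, Hif1a, Car9, P4ha1, Ero1l and Adm.

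No called gene changed sign in any alternative. Uncalled genes did: with length correction Pfkl (0.094), Tpi1 (-0.018), Ldha (-0.0059), Pdk1 (0.019), Bnip3 (-0.14) and Ankrd37 (-0.17), with upper quartile scaling Pfkl (0.014), and with limma-voom Bnip3 (-0.0037). Leaving out replicates gave a range across 0 for Pfkl (-0.065 to 0.088), Aldoa (-0.11 to 0.10), Aldoc (-0.12 to 0.034), Tpi1 (-0.019 to 0.20), Pgk1 (-0.13 to 0.12), Pkm (-0.19 to 0.025), Ldha (-0.038 to 0.17), Slc16a1 (-0.28 to 0.021), Egln1 (-0.19 to 0.021), Bnip3 (-0.15 to 0.18), Ankrd37 (-0.15 to 0.29) and P4ha2 (-0.090 to 0.14), and for the ratios Hk1/Hk2 (-0.048 to 0.21), Aldoa/Aldoc (-0.027 to 0.12), Eno1/Eno2 (-0.021 to 0.21) and Hif1a/Epas1 (-0.15 to 0.083). The cause of these changes was not tested.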
